A study of Mus musculus with 18 samples.

Results

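Cassette exons of 28 to 299 nucleotides (nt) whose length is not divisible by 3 were followed through reprogramming of mouse embryonic fibroblasts (MEFs). They were picked from the deposited table of percent spliced in (PSI), the percentage of transcripts of a gene that contain the exon, by their event type, their length, and a coverage score above the lowest class in all 18 libraries. Of 110133 exons of this kind, 61985 had that coverage, out of 661941 splicing events in the table, and they lay in 9270 named genes (44 exons had no gene name). No measured difference was used to pick them. The primary MEFs carried the genotype Collagen-OKSM, M2rtta+, which lets doxycycline switch on OCT4, SOX2, KLF4, and MYC (OSKM), and all groups were of this genotype. In the knockdown dataset, non-infected cells (NI) were taken at day 0. Cells infected with a lentivirus were taken at day 12 of doxycycline, with a scrambled shRNA (shSCR), with shCPSF3#1 or shCPSF3#2 against *Cpsf3*, or with shUL1#1 or shUL1#2 against *Hnrnpul1*. In the overexpression dataset, NI cells were again taken at day 0, and cells with an empty retroviral vector (Empty) or with mouse *Tia1* carrying a T7 tag (T7-TIA1) at day 12. Each of the 9 groups had 2 libraries, and nothing in the labels says whether they came from separate embryos or infections, so that p values measure the spread between these libraries, which may be technical. Infected cells were sorted by GFP and grown on irradiated feeder fibroblasts, whose RNA could be part of the day 12 samples. For shUL1#2 and for NI of the overexpression dataset, one label field gives another day than the titles, and the titles were followed.

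Skipping or inclusion of an exon whose length is not a multiple of 3 shifts the reading frame of everything downstream. The shifted frame usually runs into a stop codon, and when that stop lies well before the last exon junction the mRNA becomes a target of nonsense-mediated decay (NMD). Splicing factors are known for such "poison" exons, through which they limit their own mRNA. Other frame-shifting exons occur as mutually exclusive pairs of the same length class, in which one exon replaces the other and the frame is kept.

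The sequences of 4 exons with a predicted premature stop on inclusion are shown, since exons of this kind had the largest share called from NI to shSCR among the classes of predicted effect. They are given 5′ to 3′ on the coding strand, from GENCODE transcripts of GRCm38, the build of the deposited coordinates (mm10), and the capitals mark the first in-frame stop codon.
Wsb1 164 nt (chr11:79243412-79243575, minus strand): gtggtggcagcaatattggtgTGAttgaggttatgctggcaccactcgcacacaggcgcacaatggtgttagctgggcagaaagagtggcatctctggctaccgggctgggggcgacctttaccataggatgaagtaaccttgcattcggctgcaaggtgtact
Rbm25 62 nt (chr12:83661207-83661268, plus strand): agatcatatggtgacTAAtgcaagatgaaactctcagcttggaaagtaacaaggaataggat
Pcnp 104 nt (chr16:56024534-56024637, minus strand): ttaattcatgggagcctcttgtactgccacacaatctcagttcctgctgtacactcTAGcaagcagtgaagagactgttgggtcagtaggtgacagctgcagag
Rbm39 73 nt (chr2:156178880-156178952, minus strand): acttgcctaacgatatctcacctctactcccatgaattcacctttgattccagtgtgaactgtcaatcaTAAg

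Counted from the first base of the exon, the stop codon began at base 22 in *Wsb1*, 16 in *Rbm25*, 57 in *Pcnp*, and 70 in *Rbm39*. Read into the coding transcript without the exon, it shortened the predicted protein from 421 to 244 amino acids in *Wsb1*, from 838 to 293 in *Rbm25*, from 178 to 40 in *Pcnp*, and from 530 to 40 in *Rbm39*. The *Rbm39* exon is annotated in NMD transcripts, whereas those of *Wsb1*, *Rbm25*, and *Pcnp* lie within longer annotated exons or share 1 end with them.

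The neighbouring exons of 2 mutually exclusive pairs are shown for comparison, and here the capitals mark the bases that differ between the exons of a pair.
Dnm2 first exon, 139 nt (chr9:21478899-21479037, plus strand): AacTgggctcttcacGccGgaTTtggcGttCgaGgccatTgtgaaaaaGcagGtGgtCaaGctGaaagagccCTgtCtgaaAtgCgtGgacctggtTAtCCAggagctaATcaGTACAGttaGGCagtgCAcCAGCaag
Dnm2 second exon, 139 nt (chr9:21480407-21480545, plus strand): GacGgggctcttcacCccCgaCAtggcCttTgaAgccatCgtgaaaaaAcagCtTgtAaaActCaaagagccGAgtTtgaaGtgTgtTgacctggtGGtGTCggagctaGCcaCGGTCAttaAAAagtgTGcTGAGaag
P4ha1 first exon, 71 nt (chr10:59354340-59354410, plus strand): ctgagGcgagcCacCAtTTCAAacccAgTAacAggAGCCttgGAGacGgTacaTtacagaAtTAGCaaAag
P4ha1 second exon, 71 nt (chr10:59355350-59355420, plus strand): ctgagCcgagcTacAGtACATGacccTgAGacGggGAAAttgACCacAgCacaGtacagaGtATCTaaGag

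The *Dnm2* exons shared 95 of 139 bases (68.3%) and the *P4ha1* exons 42 of 71 (59.2%). All 4 are coding exons, in frame with one another because their lengths are equal.

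The frame-shifting exons had a median length of 116 nt, and 31298 (50.5%) left a remainder of 1 and 30687 (49.5%) a remainder of 2 when divided by 3. By GENCODE, 49113 were coding in full (79.2%), 797 belonged only to NMD transcripts (1.29%), and 8649 did not coincide with an annotated exon (14.0%). Skipping was predicted to give a premature stop, more than 50 nt before the last junction, for 42508 exons and an altered C terminus for 6226. Inclusion was predicted to give a premature stop for 1582 exons, with the stop in the exon itself or across its first base for 1171 of them (74.0%). The remaining 11669 exons had no such prediction. Each prediction changes a single exon of an annotated coding transcript and ignores all other splicing. Only 12 exons overlapped another exon of the set.

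Most of these exons were constitutive. PSI was at least 95 in every library for 47275 exons (76.3%) and at most 5 in every library for 6503 (10.5%). PSI ranged over at least 10 points across the 18 libraries for 3366 exons (5.43%) and over at least 30 points for 412 (0.665%). Among 39558 cassette exons of the same lengths and coverage that keep the frame, the corresponding shares were 6.5% and 1.08%. Depth was even, with 43087505 to 50494380 reads over the frame-shifting exons per library and a median of 313 to 388 reads per exon. At a PSI of 50, the Wilson 95% interval extends from 45.0 to 55.3 with 355 reads and from 33.2 to 66.8 with 30 reads, and covers counting error only.

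*Cpsf3* had 86.7 and 118 scaled CPM (the authors' normalised expression) in shSCR libraries and 38.6, 49.99, 42.4, and 77.1 in the shCPSF3 libraries, a log2 change of −0.997 ± 0.24 (SE, *limma* adjusted p = 0.021). *Hnrnpul1* had 156 and 185 in shSCR and 55.7, 85.8, 38.7, and 63.7 in the shUL1 libraries (−1.52 ± 0.23, *limma* adjusted p = 0.010). *Tia1* had 85.6 and 77.0 in Empty and 613 and 469 in T7-TIA1 libraries (2.71 ± 0.21, *limma* adjusted p = 0.22 over 9472 genes). The summed level of 12 listed fibroblast markers, among them collagen genes, was 19906 and 22583 in NI of the knockdown dataset, 6699 and 6989 in shSCR, and 13183 to 28964 in the knockdown libraries. It was 23302 and 40245 in NI of the overexpression dataset and 5611 to 7436 in Empty and T7-TIA1. The epithelial markers listed, 3 of 13, summed to 365 and 627 in shSCR and to 46.2 to 276 in the knockdowns, and none of the 12 pluripotency markers of the list was analysed here. In these bulk samples, fewer cells of a type and less RNA per cell cannot be told apart, and the part of cell composition in the PSI differences was not tested.

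The change over reprogramming was followed from NI to shSCR cells. An exon was called when the group means differed by at least 10 PSI and the nearest libraries of both groups by at least 5 PSI. By this rule, which holds no test, 443 frame-shifting exons were higher in shSCR (0.715%) and 249 lower (0.402%), against 0.725% and 0.452% of all 374159 events with coverage in the knockdown dataset. Of the exons that keep the frame, 662 of 39558 were called (1.67%), against 1.12% of the frame-shifting exons. Of the 1582 exons whose inclusion gives a premature stop, 85 were higher (5.37%) and 18 lower (1.14%), so that 82.5% of those called were higher. Of the 42508 exons whose skipping gives a premature stop, 132 were higher (0.311%) and 92 lower (0.216%). With at least 30 reads in every library, a requirement added after seeing the data, 77 premature-stop exons were higher and 14 lower.

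From NI to Empty cells, in libraries that share none with the knockdown dataset, 187 frame-shifting exons were higher and 195 lower (0.302% and 0.315%), against 0.337% and 0.321% of all 380903 events covered. Exons whose inclusion gives a premature stop were again more often higher (37, 2.34%) than lower (9, 0.569%). Among those whose skipping gives one, 42 were higher (0.0988%) and 77 lower (0.181%). Of the 692 exons called in the knockdown dataset and the 382 called in the overexpression dataset, 220 were called in both, which is 31.8% of the former and 57.6% of the latter. Without Empty library 2 the count from NI to Empty was 706, and 89 for premature-stop exons, and without NI library 2 it was 632. The exons called in both datasets changed in the same direction for 214 exons, 122 higher and 92 lower at day 12.

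Knockdown of either factor was compared with shSCR at day 12 through the mean of both shRNAs, with all 4 knockdown libraries set against both shSCR libraries. For shCPSF3, 94 frame-shifting exons were higher and 156 lower (0.152% and 0.252%), near the 0.161% and 0.235% of all events. For shUL1, 92 were higher and 104 lower (0.148% and 0.168%), against 0.15% and 0.183% of all events. Exons whose inclusion gives a premature stop were called lower for 37 (2.34%) and higher for 4 (0.253%) in shCPSF3 cells. In shUL1 cells 25 were called lower (1.58%) and 12 higher (0.759%). Both comparisons use the shSCR libraries that also enter the comparison with NI, so that a deviation of those libraries appears with opposite sign in them. Without shSCR library 1 the counts were 429 (182 higher, 247 lower) for shCPSF3 and 358 (173 higher, 185 lower) for shUL1. Without shSCR library 2 they were 480 (237 higher, 243 lower) and 432 (242 higher, 190 lower), so that the excess of lower calls nearly vanished for shCPSF3 and turned for shUL1. Premature-stop exons then had 75 calls (14 higher, 61 lower) and 68 calls (20 higher, 48 lower). For T7-TIA1 against Empty, 47 frame-shifting exons were higher and 109 lower (0.0758% and 0.176%), against 0.12% and 0.152% of all events. Exons that keep the frame had a like excess of lower calls (51 higher and 124 lower, 0.129% and 0.313%). Of the exons called, 30.1% were higher among frame-shifting exons and 29.1% among those that keep the frame. Exons whose skipping gives a premature stop made up 13 of the higher and 50 of the lower ones. These were 0.0306% and 0.118% of the 42508 exons of this class, both below the shares of all events. Omitting T7-TIA1 library 1 or 2 or Empty library 1 or 2 gave 260, 470, 303, and 349 exons, with the remaining library of that group standing for its mean.

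**Figure D1:**
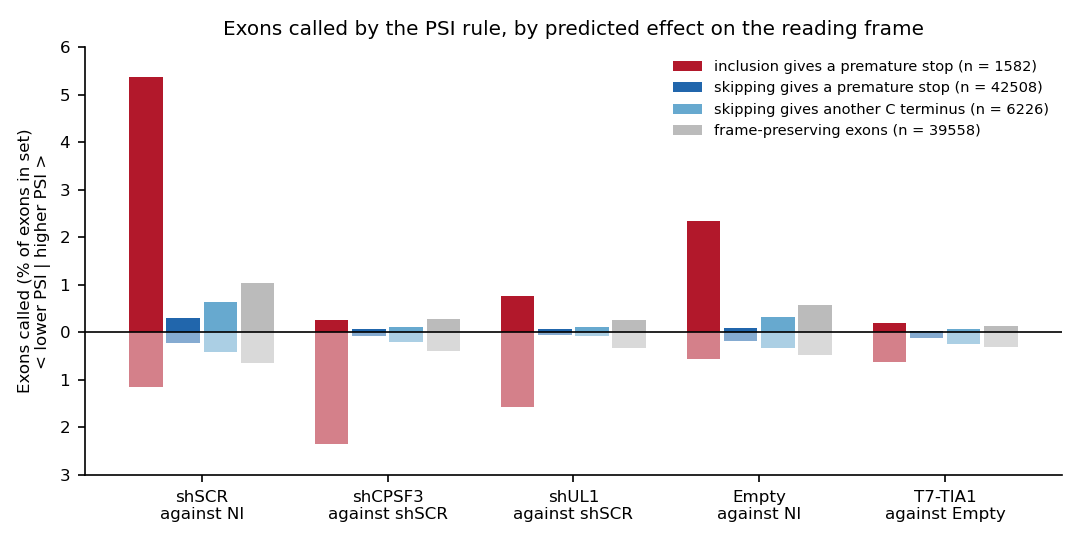
Percentage of exons called by the PSI rule in each of the 5 comparisons, by the predicted effect on the reading frame. Bars above 0 are exons with higher PSI and paler bars below 0 exons with lower PSI in the first group named; for shSCR against NI the exons whose inclusion gives a premature stop reach 5.37% higher and 1.14% lower.

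A test on reads, *limma* on log2 of inclusion over exclusion reads with adjustment over all events, called 3164 frame-shifting exons between shSCR and NI (2170 higher, 994 lower; 4.63% of all events were called). It called 420 for shCPSF3 (229 higher, 191 lower; 0.578% of all events) and 122 for shUL1 (63 higher, 59 lower; 0.133%), a balance of directions unlike that of the PSI rule. When each fit held only the groups compared, 0 frame-shifting exons passed in all 3 comparisons, so that the adjusted p values below rest on the spread shared by all groups of a dataset. None was called for Empty against NI (0.000525% of all events) or for T7-TIA1 against Empty (0% of all events), where 12058 and 3914 of the 61985 frame-shifting exons had an unadjusted *limma* p under 0.05, beside 68786 and 21862 of all 380903 events. Omitting NI library 1 or 2 left 456 and 567 calls between shSCR and NI, most of them higher (378 and 475). Omitting shSCR library 1 left 738, of which 339 were higher and 399 lower, and omitting shSCR library 2 left 1188, of which 608 were higher and 580 lower. For shCPSF3 the omission of one library gave 19 to 516 calls and for shUL1 0 to 289. Many exons with almost no reads of the rarer form entered this test. A restricted test, chosen after seeing the data, kept events with at least 10 reads of the rarer form. These reads were summed over all libraries of the dataset and not required per library, so that sparse exons remained. In it, 1825, 1022, and 551 of 22222 frame-shifting exons passed in the knockdown dataset (8.21%, 4.6%, and 2.48%), against 5.9%, 2.82%, and 1.35% of all events tested. In the overexpression dataset 381 and 20 of 17339 passed (2.2% and 0.115%), against 1.05% and 0.059% of all events. In the following, the first p is that of the test over all events and the second that of the restricted test.

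The use of exons with a premature stop was also read from each library as a whole, over all 1582 exons of this kind. The number with a PSI of at least 10 was 249 and 229 in NI and 323 and 288 in shSCR. It was 284, 274, 283, and 274 in the shCPSF3 libraries and 309, 281, 283, and 280 in the shUL1 libraries. In the overexpression dataset it was 240 and 235 in NI, 303 and 267 in Empty, and 283 and 282 in T7-TIA1. All day 12 libraries lay above all day 0 libraries. The shCPSF3 libraries lay below both shSCR libraries, the shUL1 libraries overlapped them by this count, and the T7-TIA1 libraries lay between the Empty libraries. The mean PSI of these exons went from 9.13 and 8.998 in NI to 10.7 and 10.3 in shSCR and lay between 9.59 and 10.2 in all knockdown libraries, below both shSCR libraries. These shifts were small, and the median exon had a PSI between 0.79 and 1.36 in each library. With 2 libraries a group, an exact permutation test of 1 comparison cannot reach a p under 0.05, and none was made. PSI reads the RNA present, so that more production and less decay of the form with the stop cannot be told apart.

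**Figure D2:**
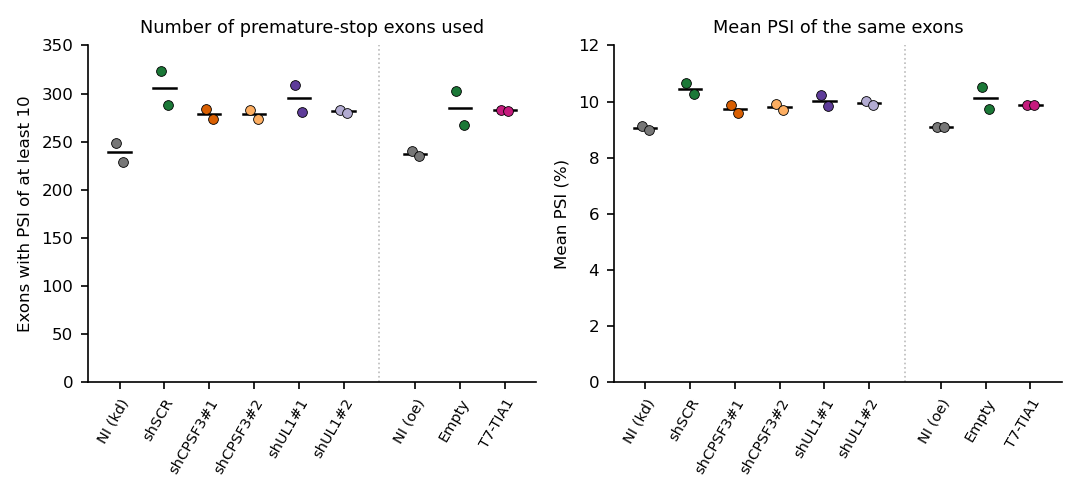
Number of exons with a PSI of at least 10 (left) and mean PSI in percent (right), over the 1582 exons whose inclusion gives a premature stop. Each point is a library and each line the mean of its group, with NI of the knockdown (kd) and overexpression (oe) datasets shown apart; the NI libraries hold 229 to 249 such exons and the shSCR libraries 288 and 323.

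*Wsb1*, which encodes a substrate receptor of a ubiquitin ligase, had the widest difference of these exons from NI to shSCR among those with at least 30 reads per library. Its 164 nt exon had a PSI of 16.7 and 15.6 in NI and of 75.9 and 74.5 in shSCR libraries (*limma* adjusted p = 0.00032, then 1.4e-08). In the knockdown libraries it lay between 47.1 and 59.3, apart from both NI and shSCR, a difference from shSCR of −19.5 PSI for shCPSF3 (*limma* adjusted p = 0.011) and −22.6 for shUL1 (0.019). The second NI group was uneven, at 22.7 and 50.6, and overlapped Empty at 49.8 and 44.8.

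*Rbm25*, *Rbm39*, and *Tra2a* encode splicing regulators rich in arginine and serine. The 62 nt exon of *Rbm25* had a PSI of 3.21 and 3.25 in NI, 36.6 and 28.8 in shSCR, and 4.31 to 8.48 in the 8 knockdown libraries, which lay nearer to NI than to shSCR (*limma* adjusted p = 0.0030, 0.0095, and 0.019 for shSCR, shCPSF3, and shUL1). In the overexpression dataset, its PSI was 2.35 and 4.22 in NI, 15.5 and 7.33 in Empty, both below shSCR, and 7.12 and 6.89 in T7-TIA1. The 79 nt exon of *Tra2a* had 12.1 and 11.3 in NI and 41.6 and 31.7 in shSCR (*limma* adjusted p = 0.0063), and 7.93 and 9.79 against 36.4 and 20.7 from NI to Empty (*limma* adjusted p = 0.17, then 0.0083). In *Tra2a* the knockdown libraries lay between 13.3 and 26.5, all under shSCR and above NI. The 73 nt exon of *Rbm39* had 31.9 and 26.3 in NI and 54.5 and 54.1 in shSCR (*limma* adjusted p = 0.0074), against 36.7 to 44.0 for shCPSF3 (0.049) and 41.3 to 45.3 for shUL1 (0.14, then 0.13).

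*Pcnp*, a nuclear protein gene, had a similar order of groups. PSI of its 104 nt exon was 13.2 and 8.55 in NI, 56.7 and 46.4 in shSCR, 15.9 to 22.6 in shCPSF3, and 17.6 to 22.9 in shUL1 libraries (*limma* adjusted p = 0.0064, 0.025, and 0.040). The knockdown libraries did not overlap either NI or shSCR.

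TIA1 binds uridine-rich RNA and regulates splicing, and its own gene carried an exon with a premature stop. The 119 nt exon of *Tia1* went from 4.12 and 3.15 in NI to 22.3 and 16.5 in shSCR (*limma* adjusted p = 0.014). It had 19.8 and 18.5 in Empty and 0.07 and 0.22 in T7-TIA1, with 162 and 176 exclusion reads in Empty and 12435 and 8488 in T7-TIA1, and 40.0 and 39.9 inclusion reads against 8.71 and 18.7. Reads of the introduced cDNA and of the chromosomal gene cannot be told apart.

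**Figure D3:**
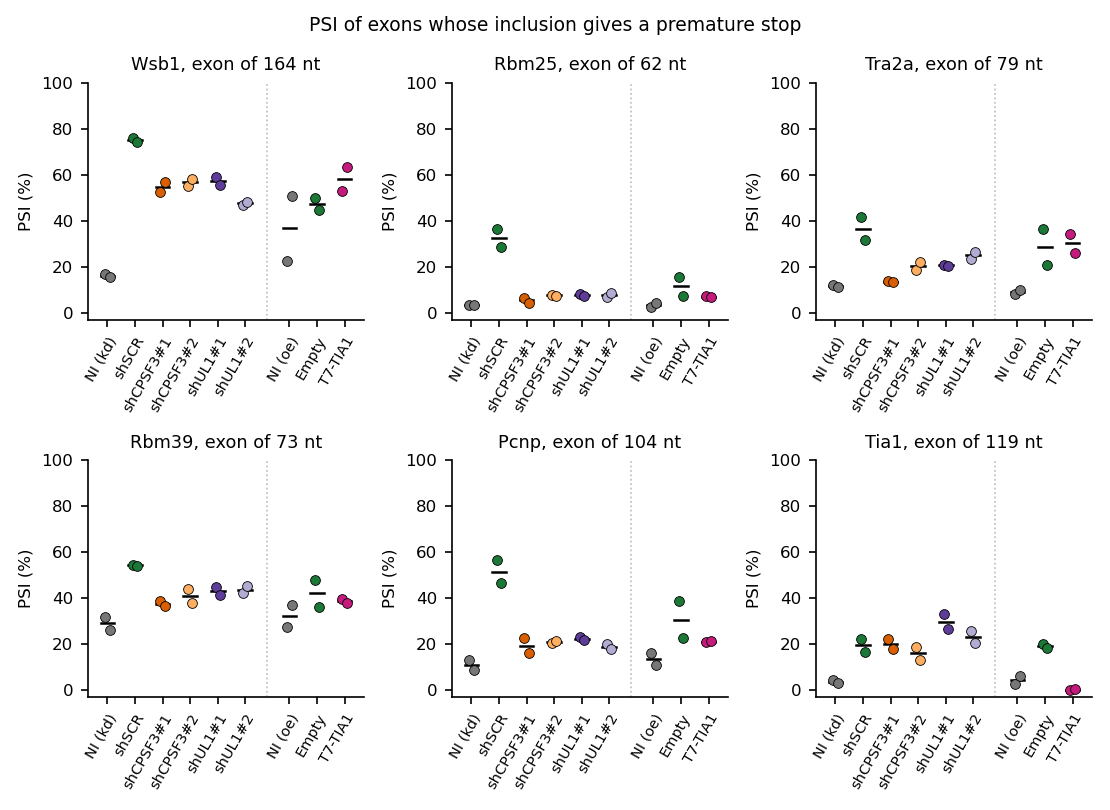
PSI in percent of 6 exons whose inclusion gives a premature stop, 1 point per library and a line at the mean of each group, by group of the knockdown and overexpression datasets. PSI of the *Rbm25* exon is 28.8 and 36.6 in shSCR and at most 8.48 in NI and the knockdown libraries, and that of the *Pcnp* exon is 46.4 and 56.7 in shSCR and at most 22.9 in the knockdown libraries.

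Wide differences also lay in *Wasf3*, which encodes a regulator of actin assembly (WAVE3). Its 176 nt coding exon had a PSI of 5.66 and 2.56 in NI and 65.8 and 76.4 in shSCR, and of 7.46 and 1.90 in NI and 53.0 and 59.4 in Empty libraries. The 170 nt exon 4709 nt downstream, which overlaps no annotated exon, had 97.0 and 98.5 against 29.9 and 16.8, and 96.0 and 99.1 against 41.1 and 34.8. The PSI values of both exons summed to 93.1 to 102.7 in each knockdown dataset library, so that transcripts carried mainly one or the other. In shCPSF3#1 the 176 nt exon was back at 7.05 and 7.50, whereas shCPSF3#2 had 13.5 and 49.5, shUL1#1 11.1 and 43.6, and shUL1#2 16.7 and 43.7. The reads did not pass in the knockdown dataset (*limma* adjusted p from 0.070 to 0.26), and in the overexpression dataset they passed only in the restricted test (0.00029 and 4.0e-05).

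*Dnm2*, which encodes the membrane-severing GTPase dynamin 2, switched between the exons printed above. The first exon had a PSI of 81.1 and 84.5 in NI and 60.5 and 44.3 in shSCR, and the second 18.1 and 17.0 against 42.2 and 56.2 (*limma* adjusted p = 0.043 and 0.039). From NI to Empty the first exon went from 81.4 and 85.6 to 56.8 and 60.1 (*limma* adjusted p = 0.12, then 0.0022), and T7-TIA1 libraries, with 62.5 and 60.8, differed little from Empty (+3.18 PSI). Of the knockdown libraries only one of shCPSF3#2, at 55.7, lay within the range of shSCR, and the other 7 lay between 64.7 and 84.5. The second exon was called lower for shUL1 (−18.8 PSI, *limma* adjusted p = 0.26, then 0.075).

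*P4ha1*, a catalytic subunit of the prolyl hydroxylase that matures collagen, showed a different pattern. The first exon had a PSI of 34.3 and 33.1 in NI, 19.9 and 17.7 in shSCR, and 33.3 to 40.1 in all 8 knockdown libraries, and the second exon moved in the opposite direction (79.7 and 79.8 in shSCR, 60.04 to 67.5 in the knockdowns). Both exons passed in all 3 comparisons (*limma* adjusted p from 0.0083 to 0.020). From NI to Empty the first exon hardly differed, with 34.1 and 36.9 against 37.2 and 33.8, so that shSCR stood apart from every other group.

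Pairs of called exons of 1 gene that moved in opposite directions numbered 19 from NI to shSCR, 6 for shCPSF3, 4 for shUL1, 10 from NI to Empty, and 2 for T7-TIA1, and the 2 exons left the same remainder in 7, 4, 4, 5, and 2 of them. Of the pairs beyond *Wasf3*, *Dnm2*, and *P4ha1*, *2310035C23Rik* had 2 exons of 83 nt, the second of which went from 8.15 and 7.09 in NI to 36.8 and 30.3 in shSCR. *Fgfr2*, a growth factor receptor whose alternative ligand-binding domain differs between epithelium and mesenchyme, had a 148 nt exon at 1.5 and 1.24 in NI, 11.7 and 15.4 in shSCR, 10.6 and 11.0 in Empty, and 13.8 and 24.5 in T7-TIA1 libraries. The pairs for T7-TIA1 were in *Ogdh*, where the 91 nt exon of this mitochondrial dehydrogenase had 12.3 and 11.5 in Empty and 27.4 and 21.7 in T7-TIA1, and in *Plpp1*, where a 152 nt exon had 59.8 and 57.6 against 72.8 and 70.1.

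**Figure D4:**
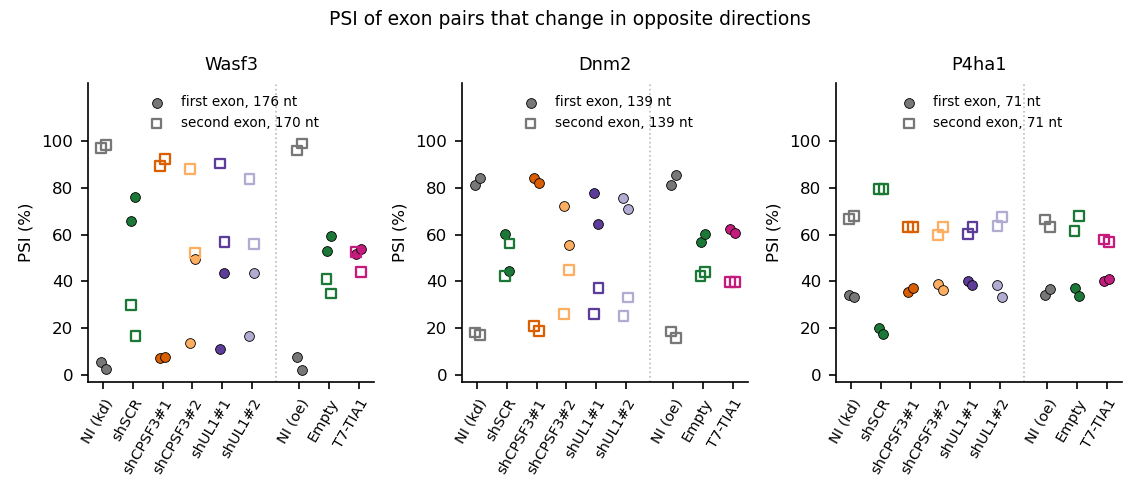
PSI in percent of both exons of the *Wasf3*, *Dnm2*, and *P4ha1* pairs in each library, with filled circles for the first and open squares for the second exon in the direction of transcription. The exons of a pair mirror each other, and in *P4ha1* the shSCR libraries (17.7 and 19.9 for the first exon) lie apart from all others.

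Other named exons changed the message in further ways. *Slc9a5*, a sodium-proton exchanger, had a 71 nt coding exon at 22.1 and 21.3 in NI, 76.6 and 82.7 in shSCR, 36.0 to 39.9 in shCPSF3, and 33.9 to 56.1 in shUL1 libraries (*limma* adjusted p = 0.0039, 0.015, and 0.034). Its skipping shortens the predicted protein from 898 to 482 amino acids. *Itga6*, an integrin whose 130 nt exon gives one of 2 cytoplasmic tails, had 76.4 and 84.6 in NI and 23.4 and 18.8 in shSCR (*limma* adjusted p = 0.0063), and 79.9 and 84.7 in NI and 34.5 and 37.9 in Empty (0.12, then 3.6e-05). Within shCPSF3 the shRNAs differed for *Itga6*, with 79.5 and 69.5 for shCPSF3#1 and 39.4 and 36.7 for shCPSF3#2.

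*Srpk2*, a kinase of SR proteins, had a 64 nt exon at 79.9 and 79 in NI, 38.0 and 35.1 in shSCR, and 63.9 to 82.5 in the knockdown libraries, none of which overlapped shSCR (*limma* adjusted p = 0.012, 0.028, and 0.046). *Srsf1*, an SR protein, had a 187 nt coding exon at 96.4 and 98.2 in NI, 66.7 and 73.5 in shSCR, and 87.8 to 93.6 in the knockdowns. Its difference passed from NI to shSCR (*limma* adjusted p = 0.0067) and in both knockdowns only in the restricted test (0.00093 and 0.00063). The 73 nt exon of *Hnrnpa2b1*, an RNA-binding protein gene, shared 1 end with an annotated exon and had 11.3 and 11.1 in NI, 65.4 and 60.1 in shSCR, 33.1 to 40.0 in shCPSF3, and 23.7 to 51.4 in shUL1 libraries (*limma* adjusted p = 0.0027 and 0.028 for the first 2 differences). The shUL1 difference passed only in the restricted test (*limma* adjusted p = 0.05004, then 0.0022). In Empty the exon reached 50.6 and 43.6, above the 12.9 and 21.4 of NI.

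Genes of splicing regulators were counted as lists, chosen with earlier results of these data known. From NI to shSCR, 5 of 96 exons in genes of SR proteins and their kinases were called (5.21%; 2 higher, 3 lower) and 14 of 267 in other RNA-binding regulators (5.24%; 9 higher, 5 lower), against 1.12% of all frame-shifting exons. From NI to Empty these were 7 of 96 (7.29%) and 9 of 267 (3.37%), against 0.616% of all frame-shifting exons. The exons of *Clk1* and *Clk4* among them lie in related kinases, and whether reads are shared between these genes was not tested. NMD and exon junction genes had 5 of 185 called from NI to shSCR (2.7%). One of these was a 58 nt exon of *Smg1*, the kinase of the NMD factor UPF1, with 41.3 and 42.9 in NI and 9.11 and 14.2 in shSCR (*limma* adjusted p = 0.026). Of genes with mutually exclusive or tail-changing exons, 12 of 260 exons were called (4.62%), and of epithelial and mesenchymal splicing genes 5 of 543 (0.921%). The medians of the PSI difference were 0 for all 5 lists in all 5 comparisons.

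The exons named for T7-TIA1 mostly did not pass the read-level test. *Dnase1l1*, an endonuclease gene, had a 101 nt coding exon at 95.4 and 92.6 in Empty and 62.8 and 73.6 in T7-TIA1 (*limma* adjusted p = 0.61, then 0.039), the only one besides *Tia1* among the 12 largest differences to pass either test. *Fndc3b* (77 nt) had 16.6 and 25.1 against 53.8 and 44.0, and *Nfia* (92 nt), a transcription factor, 78.0 and 81.8 against 59.5 and 60. For these exons the libraries of both groups did not overlap, and their *limma* adjusted p was 0.75 and 0.61.

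Expression of the genes that hold these exons was read from the deposited tables, which listed 7974 of the host genes in the knockdown and 8046 in the overexpression dataset. From NI to shSCR, 1787 host genes rose and 1753 fell at a *limma* adjusted p under 0.05, against 22.5% higher and 22% lower among all 9435 listed genes. Hosts of called exons rose more often than they fell (158 and 83 of 500). Hosts of exons whose skipping gives a premature stop were split by the direction of the PSI difference. Where PSI of such exons was higher in shSCR, 40 of 91 listed hosts rose and 8 fell (44.0% and 8.79%, median log2 change 0.48). Where it was lower, 14 of 76 rose and 21 fell (18.4% and 27.6%, median −0.19). For exons whose inclusion gives a premature stop and whose PSI was higher, 21 of 73 hosts rose and 16 fell (28.8% and 21.9%, median 0.13), near the share among all listed genes. No test between these shares was made. Without NI library 1 or 2, 2185 and 2305 host genes passed.

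Of the genes with the stop codons printed above, *Wsb1* and *Rbm39* rose from NI to shSCR along with the exon. *Rbm39* had 317 and 308 scaled CPM in NI and 428 and 467 in shSCR (log2 change 0.52 ± 0.13, *limma* adjusted p = 0.013), and fell again for shCPSF3 (−0.42 ± 0.11, adjusted p = 0.029). *Tra2a* had 191 and 181 in NI, 266 and 285 in shSCR (0.56 ± 0.14, *limma* adjusted p = 0.013), and fell in both knockdowns (adjusted p = 0.017 and 0.037). *Wsb1* had 308 and 278 against 367 and 374 (0.34 ± 0.12, *limma* adjusted p = 0.048). For *Rbm25* (0.31 ± 0.26) and *Pcnp* (0.15 ± 0.10) the difference from NI to shSCR did not pass (*limma* adjusted p = 0.38 and 0.25).

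From NI to Empty, 1856 host genes rose and 1940 fell, against 22.8% and 23.6% of all 9472 listed genes. Hosts of exons with higher PSI rose in 12 and fell in 6 of 31 cases where skipping gives a premature stop, whereas hosts of such exons with lower PSI rose in 16 and fell in 15 of 56. Hosts of exons with higher PSI rose in 9 and fell in 2 of 33 where inclusion gives one. For shCPSF3, 1330 host genes rose and 695 fell (all listed genes 16.7% and 9.35%), and for shUL1 563 rose and 248 fell (7.31% and 3.15%). With median-ratio scaling, the counts were 1063 and 898 for shCPSF3 and 439 and 311 for shUL1. With the replicate number fitted as a block, they were 2194 and 1753 for shCPSF3 and 1299 and 1046 for shUL1. Without shSCR library 2 the totals were 467 and 119, and without Empty library 1 or 2 the total from NI to Empty was 1300 and 1941. Hosts of premature-stop exons with lower PSI in shCPSF3 rose in 3 and fell in 9 of 32 cases. No host gene passed for T7-TIA1 against Empty by *limma* (0% of all genes in either direction), where 343 of 8046 host genes had an unadjusted p under 0.05, beside 393 of all 9472 genes tested.

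**Figure D5:**
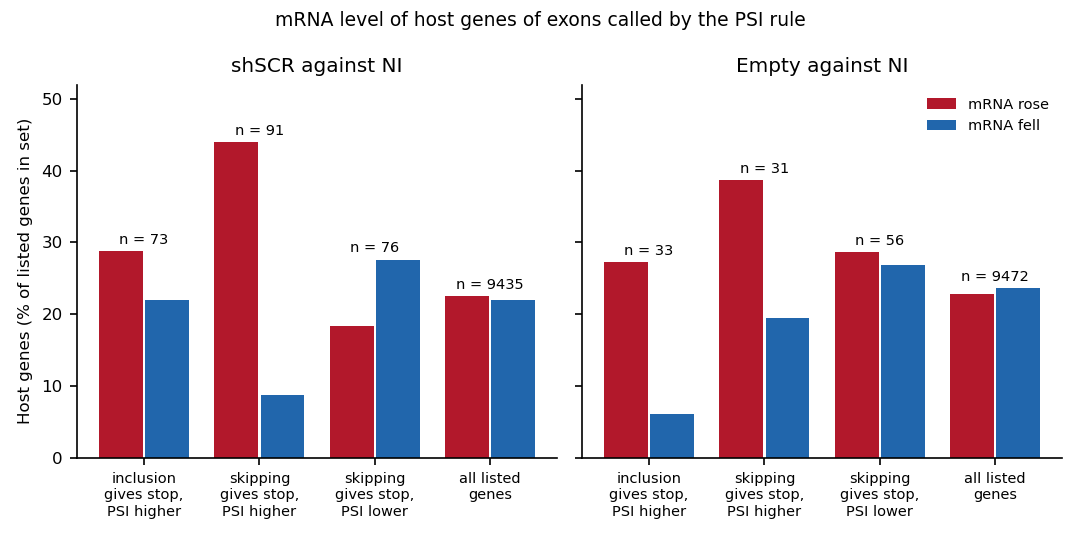
Percentage of listed host genes whose mRNA rose or fell (*limma* adjusted p under 0.05), for exons called by the PSI rule with a given predicted effect and direction, beside all listed genes, in shSCR against NI (left) and Empty against NI (right). Numbers above the bars are listed genes. In shSCR against NI, 44.0% of hosts rose and 8.79% fell where skipping gives a premature stop and PSI was higher. Exons with no prediction and higher PSI, not drawn, had 43.8% and 10.9%.

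The NMD machinery itself was listed in full, with 21 genes. From NI to shSCR 4 rose and 4 fell, shares no higher than those of all listed genes (22.5% and 22%). *Smg1* had 153 and 143 scaled CPM in NI and 228 and 247 in shSCR (log2 change 0.68 ± 0.15, *limma* adjusted p = 0.0087), and the endonuclease gene *Smg6* 34.9 and 34.9 against 54.0 and 60.1 (0.69 ± 0.10, 0.0013). *Upf2*, which bridges UPF1 and the exon junction complex, rose by 0.41 ± 0.13 (*limma* adjusted p = 0.034) and *Pnrc2* by 0.49 ± 0.10 (0.0049). Among the genes that fell were *Upf3a*, with 50.6 and 47.0 in NI and 29.95 and 31.1 in shSCR (−0.66 ± 0.10, *limma* adjusted p = 0.0011), and the junction component *Magohb*, with 41.1 and 35.1 against 9.75 and 13.4 (−1.65 ± 0.21, 0.00062). *Nbas* and the release factor gene *Gspt1* also fell (−0.68 ± 0.14 and −0.92 ± 0.23). *Upf1*, the central helicase, had 107 and 107 in NI and 99.1 and 120 in shSCR (0.02 ± 0.21, *limma* adjusted p = 0.94). From NI to Empty, 3 rose and 3 fell. In shCPSF3 cells 1 rose and 2 fell against shSCR, *Smg1* among the latter (−0.51 ± 0.13, *limma* adjusted p = 0.027), and none passed in shUL1 cells, where 811 host genes passed in all. Their part in the PSI of premature-stop exons was not tested.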

How the data were processed

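RNA was sequenced from 18 libraries, 2 for each of 9 groups, as stranded paired-end polyA libraries. Per the submitters' processing notes, STAR 2.7.1a and edgeR 3.16.5 were used. PSI was deposited in percent, with corrected inclusion and exclusion reads and a coverage score, from vast-tools on mm10. Expression was deposited as a signal, the CPM values scaled and filtered by the authors, for 9435 genes of the knockdown and 9472 of the overexpression dataset, with 0 columns of no sample used.

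The exons and gene lists were chosen with earlier results of these data known. Groups were taken from the sample titles. Exons were matched to GENCODE vM21 transcripts, and a stop more than 50 nt before the last junction was taken as premature. An exon was called when group means differed by at least 10 PSI and the nearest libraries by at least 5. Named exons were the 6 largest rises and 6 largest falls of each of the 5 comparisons with at least 30 reads in every library and 1 exon per gene and direction, all called exons in the listed genes with that depth, and the 5 widest opposite pairs, with their host genes, all listed NMD factors, *Cpsf3*, *Hnrnpul1*, and *Tia1*. An item withheld for evaluation is not reported here. Reads were tested with *limma* 3.58.1 (R 4.3.3) on log2((inclusion + 1)/(exclusion + 1)), weighted by counting variance plus 0.1, and expression on log2(scaled CPM + 1), so that changes of low genes are understated. All groups of a dataset entered 1 fit, p values were adjusted by Benjamini-Hochberg over all events or genes, and the threshold was 0.05. The scripts were tested on simulated data. Python 3.11.15, numpy 2.4.6, pandas 2.3.3, and scipy 1.17.1 were used.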

Additional observations from a re-analysis of the deposited data

Results flagged for a closer look

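In 6 exons the difference from day 0 to day 12 had opposite directions in the knockdown and overexpression datasets, with each passing the PSI rule, and the difference between datasets was not tested. The 167 nt exon of *Clk1* differed by 14.36 PSI from NI to shSCR and by −16.9 from NI to Empty, with at least 378 reads per library. It had a PSI of 73.8 and 87.1 in NI and 94.97 and 94.7 in shSCR, but 93.9 and 91.2 in NI and 66.3 and 85.0 in Empty. The 73 nt exon of *Alkbh1*, annotated in NMD transcripts, differed by −11.35 and 20.23. It had 45.2 and 51.6 in NI and 38.2 and 35.9 in shSCR, against 25.4 and 25.9 in NI and 56.6 and 35.1 in Empty. The day 0 groups of the 2 datasets thus differed for both exons. The other 4 were shallower, with 21 to 54 reads in the least covered library. The differences were 24.83 and −10.58 for *Mylpf* (115 nt), 22.91 and −17.57 for a 98 nt exon with no gene name, −16.08 and 16.98 for *Etfbkmt* (110 nt), and 17.45 and −11.6 for *Il2rg* (97 nt).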

How the results depend on the processing

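Counts of exons called by the PSI rule, in the order shSCR against NI, shCPSF3, shUL1, Empty against NI, and T7-TIA1, were 692, 250, 196, 382, and 156. They became 405, 139, 100, 208, and 55 with a difference of at least 15 PSI, and 431, 93, 77, 201, and 60 with at least 10 PSI between the nearest libraries. Without a minimum between libraries, shCPSF3, shUL1, and T7-TIA1 had 454, 361, and 257. With only the first shRNA shCPSF3 had 484, and with only the second shUL1 had 329. Leaving out each library in turn gave 796 to 896, 276 to 480, 222 to 432, 434 to 706, and 260 to 470, and for premature-stop exons 98 to 132, 45 to 75, 40 to 68, 44 to 89, and 19 to 40.

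The read-level counts were 3164, 420, 122, 0, and 0. With only the groups compared the first 3 were 0, 0, and 0. With 0.5 read added, shSCR against NI had 1320 and shCPSF3 224, and with PSI in percent shSCR against NI had 652 and shUL1 193. Without weights shCPSF3, shUL1, and Empty had 132, 2, and 127. With at least 10 reads of the rarer form summed over a dataset, chosen after seeing the data, the 5 counts were 1825, 1022, 551, 381, and 20. The first shRNA alone gave 261 for shCPSF3 and 0 for shUL1, the second 17 and 14. Leaving out each library gave 456 to 2504, 19 to 516, 0 to 289, 0 to 0, and 0 to 0.

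Host gene counts (3540, 2025, 811, 3796, and 0) were 268 and 102 for the knockdowns and 2 for T7-TIA1 with only the groups compared, and 2185 to 3624, 467 to 2671, 119 to 847, 1300 to 5132, and 0 to 2 with each library left out. With the replicate number as a block (replicate block), host genes were 4729, 3947, 2345, 3798, and 0 and read-level calls 4630, 581, 90, 0, and 0. The labels do not say that equal numbers share a culture. Second minus first libraries correlated between day 12 groups of the knockdown dataset by 0.105 to 0.263 over 3366 exons, and with NI by −0.00438 to 0.0329. In the overexpression dataset the correlation was 0.197 between Empty and T7-TIA1, 0.105 between NI and T7-TIA1, and 0.0308 between NI and Empty. The causes of these shifts were not tested. Among values of named exons, 835 moved less than the spread between libraries, 21 moved more, and 0 reversed. An edgeR test on recovered reads was not run, since the expression values did not come out as whole reads.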
